A study of Rattus norvegicus with 12 samples.

Results

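The phospholipase A2 and prostaglandin pathway was followed through 10 rat genes, picked by name: Pla2g5, Pla2g2a and Pla2g4a among the phospholipases, Ptgs1, Ptgs2, Ptges, Ptgds and Ptgis among the synthases, and Ptger4 and Ptgfr among the receptors. The set was chosen on these data, because Pla2g5 was nearly lost with JQ1 and Ptgds responded to the treatments differently with JQ1 present. Those values of Pla2g5 and Ptgds are therefore given as a description without a test. Of the 32883 genes in the tables, 9 were members; Ptgis, the prostacyclin synthase, was not analysed here. Among the 9, 6 reached the level set for testing, which was at least 1 FPKM in at least 2 libraries, and Pla2g2a, Ptges and Ptger4 did not.

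RNA was sequenced from cultured heart muscle cells of newborn Sprague-Dawley rats aged 1 to 3 days. All cultures had been seeded at 40000 cells per cm2, had started in 7% serum and had been exposed to 10 µM AraC, an inhibitor of dividing cells, before any treatment. For 24 h they then received endothelin-1 (ET-1, a peptide that acts on endothelin receptors) at 100 nM with JQ1, ET-1 alone, phenylephrine (PE, an alpha-1 adrenergic agonist) at 10 µM with JQ1, PE alone, acetic acid (the vehicle) with JQ1, or acetic acid alone. JQ1, a small molecule that blocks the bromodomains of BET proteins, was used at 1 µM, and groups without it received DMSO. Each of the 6 groups had 2 libraries, numbered replicate 1 and replicate 2, and nothing in the labels says whether these came from separate cultures or litters and so the p-values speak only to how far these libraries scatter, which may be technical scatter.

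Phospholipases A2 cut fatty acids such as arachidonate from membrane phospholipids. The cyclooxygenases encoded by Ptgs1 and Ptgs2 turn arachidonate into prostaglandin H2, and terminal synthases convert that into prostaglandin E2 (Ptges), prostaglandin D2 (Ptgds) or prostacyclin (Ptgis). The products act on G protein-coupled receptors, among them the EP4 receptor for prostaglandin E2 (Ptger4) and the FP receptor for prostaglandin F2 alpha (Ptgfr). In newborn rat heart muscle cells the FP receptor is known for its coupling to growth in cell size, and Pla2g5 encodes a small secreted phospholipase A2 that is abundant in heart.

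Levels below are FPKM (fragments per kilobase of transcript, scaled to library size), as the authors deposited them per transcript, summed per gene and rescaled so that the median gene was level across libraries. The libraries held 2.341 to 2.965 Gb of covered bases. Differences are on the log2(rescaled FPKM + 0.5) scale, which understates changes of genes near or below 1 FPKM. Where groups of 2 libraries are said not to overlap, this is a description. The share of all genes without overlap was not computed. Defining cardiomyocyte markers summed to 17500 to 27600 FPKM in libraries with JQ1 and 15200 to 22700 FPKM in those without, so the cell label held. Other cell types were present, and they separated the replicate numbers. Replicate 1 had 4.04 to 5.13 times the summed fibroblast markers of replicate 2 in the same group, 2.34 to 3.48 times the macrophage markers and 2.17 to 3.06 times the mesothelial markers. In bulk RNA, fewer cells of a type and less RNA per cell cannot be told apart.

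**Figure D1:**
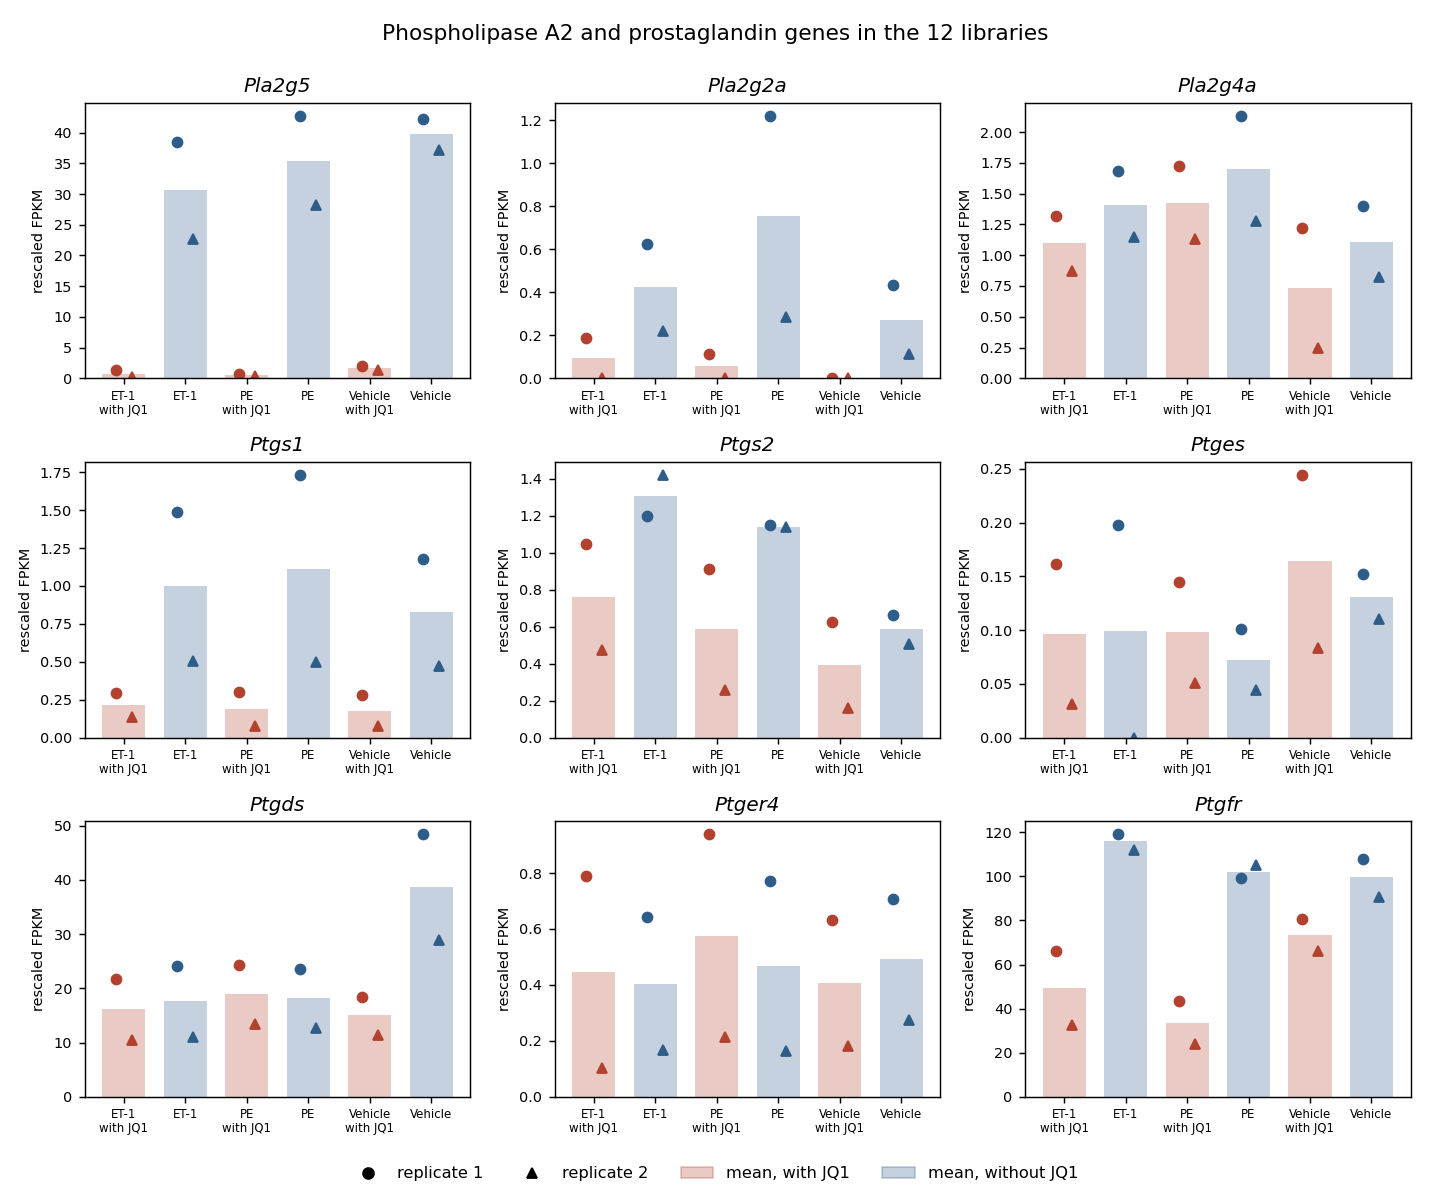
Rescaled FPKM of the 9 members in each library, with libraries with JQ1 in red and those without in blue, circles for replicate 1, triangles for replicate 2 and bars for the mean of the pair. Pla2g5 lay at no more than 1.93 FPKM in the red libraries and between 22.7 and 42.7 FPKM in the blue ones, whereas Ptgds stood apart in vehicle without JQ1, at 48.4 and 29.0 FPKM.

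The results turned mainly on Pla2g5, Ptgds and Ptgfr, and their RefSeq promoter windows (GRCr8, 250 bases before to 50 after the annotated start) are shown with every CG in capitals, because the bromodomain inhibitor acts on transcription.
Pla2g5, chr5:156345873-156346172, minus strand: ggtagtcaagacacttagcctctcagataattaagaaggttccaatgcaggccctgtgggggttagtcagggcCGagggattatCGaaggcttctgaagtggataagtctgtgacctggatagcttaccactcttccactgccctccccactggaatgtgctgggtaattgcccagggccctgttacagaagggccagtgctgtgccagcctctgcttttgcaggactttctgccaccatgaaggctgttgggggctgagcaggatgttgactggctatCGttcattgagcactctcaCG
Ptgds, chr3:28682929-28683228, minus strand: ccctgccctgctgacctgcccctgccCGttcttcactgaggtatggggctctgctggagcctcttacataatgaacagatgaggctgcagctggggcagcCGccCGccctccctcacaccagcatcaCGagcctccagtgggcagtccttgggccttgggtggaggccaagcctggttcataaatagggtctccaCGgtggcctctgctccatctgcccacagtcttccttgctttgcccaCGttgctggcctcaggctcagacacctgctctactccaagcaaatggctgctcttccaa
Ptgfr, chr2:243425574-243425873, minus strand: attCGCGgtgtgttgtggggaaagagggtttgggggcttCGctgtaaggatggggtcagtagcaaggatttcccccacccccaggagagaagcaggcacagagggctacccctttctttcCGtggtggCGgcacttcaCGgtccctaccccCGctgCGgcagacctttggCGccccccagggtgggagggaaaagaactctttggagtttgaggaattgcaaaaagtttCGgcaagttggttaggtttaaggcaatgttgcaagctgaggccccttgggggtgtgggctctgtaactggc
The windows held 4 CG in Pla2g5, 6 in Ptgds and 10 in Ptgfr, against a median of 7 over the 33469 promoters of the same length. Searched on both strands, the letters CCAAT were in the windows of Pla2g5, Pla2g2a and Ptgs2 and in 37.5% of all promoters. AGATAA was in that of Pla2g5 and in 11.6% of all, and GGGCGG in those of Ptgds, Ptgs2 and Ptges and in 33.1% of all. TATAAA, found in 14.2% of all promoters, was in the window of Pla2g4a, and CACGTG, found in 6.4%, in that of Ptgs2. TGACTCA, found in 4.6%, was in none of the 9 members' windows.

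Pla2g5 (ENSRNOG00000016838, rn6 chr5:157247781-157268903, minus strand) differed most with JQ1 as a ratio of levels among the tested members, and was chosen for it. With JQ1 its level was 1.38 and 0.168 FPKM in ET-1-treated cells, against 38.4 and 22.7 FPKM with ET-1 alone. In PE-treated cells it was 0.726 and 0.32 FPKM with JQ1, against 42.7 and 28.2 FPKM with PE alone. In vehicle-treated cells it was 1.93 and 1.4 FPKM with JQ1, against 42.2 and 37.1 FPKM without. The lowest library without JQ1 was thus above the highest with JQ1 in every treatment, and the groups did not overlap. The means with JQ1 were 39.5-fold lower with ET-1, 67.7-fold lower with PE and 23.8-fold lower with vehicle. On the log2 scale the differences were -4.75, -5.13 and -4.22, each with an SE of 0.48 and 2 libraries a group. That SE comes from the moderated fit over all 12 libraries, not from each pair alone. These differences are the values that chose the gene. At 50 bases a read, the commonest step in the low coverage values, they rest on 14 to 188 reads with JQ1 and 1938 to 3997 reads without.

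Under JQ1 the agonist differences of Pla2g5 from vehicle lie in the same low libraries that chose the gene. They are given as a description, with no test. PE with JQ1 averaged 0.523 ± 0.287 FPKM and vehicle with JQ1 1.67 ± 0.378 FPKM (SD, n = 2 each), a log2 difference of -1.10 ± 0.48 (SE). ET-1 with JQ1, at 0.774 ± 0.857 FPKM, differed from vehicle with JQ1 by -0.94 ± 0.48. Without JQ1 the pairs of the 3 treatments overlapped, and the difference from vehicle was -0.42 ± 0.48 with ET-1 (adjusted p = 0.69) and -0.19 ± 0.48 with PE (adjusted p = 0.86), neither called.

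Set against the other phospholipases A2, Pla2g5 was a minor member of the family with JQ1 and a leading one without. FPKM is per length, so levels can be summed: over 22 phospholipase A2 genes, Pla2g5 made up 0.17 to 1.96% of the sum with JQ1 and 20.8 to 33.3% without. It ranked 8th or 9th of these genes with JQ1 and 1st to 3rd without. Pnpla8, a calcium-independent phospholipase of mitochondria and peroxisomes, led in every library with JQ1, followed by Pla2g12a, a secreted enzyme, and Pla2g16, an adipose-enriched phospholipase, in either order. The summed level of the family was 95.9 to 119.0 FPKM with JQ1 and 109.0 to 158.0 FPKM without. It was lower with JQ1 in 6 of 6 pairs of the same treatment and replicate number, and in vehicle-treated cells the groups did not overlap, at 98.8 and 113.0 FPKM with JQ1, against 144.0 and 158.0 FPKM without. The sum holds Pla2g5, whose JQ1 values chose it. Without Pla2g5 the family summed to 94.5 to 118.0 FPKM with JQ1 and 83.6 to 121.0 FPKM without, lower with JQ1 in 2 of 6 pairs.

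**Figure D2:**
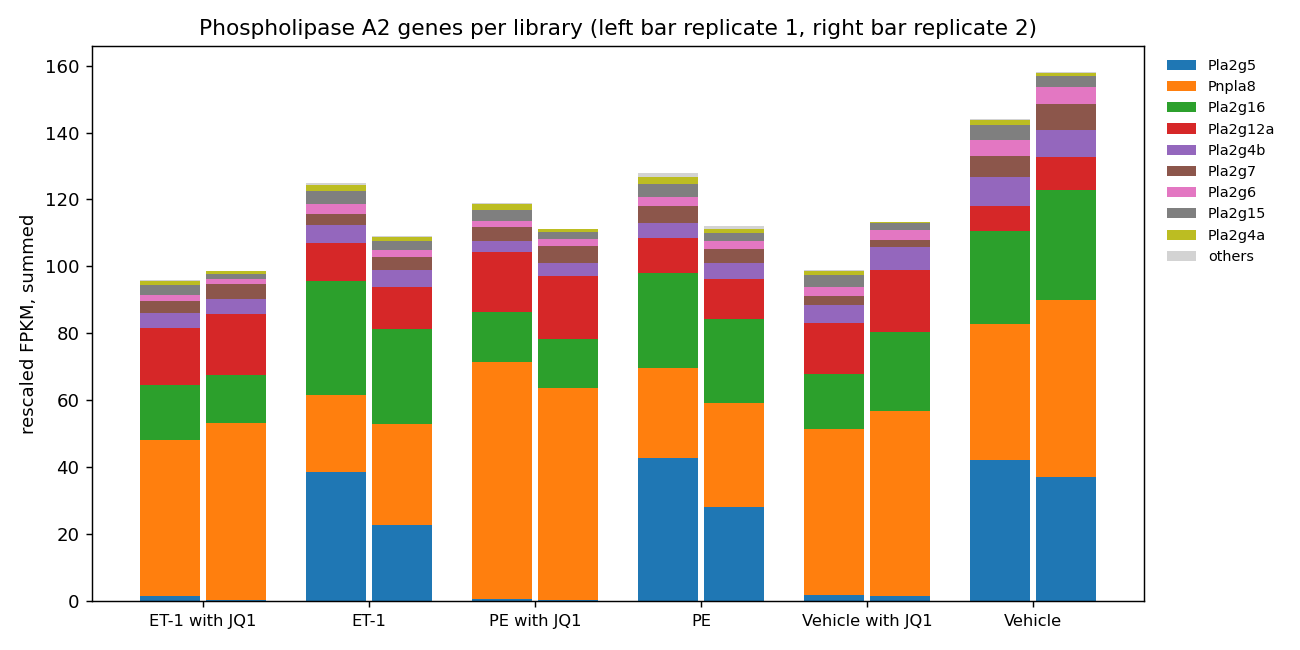
Rescaled FPKM of phospholipase A2 genes stacked per library, the left bar of each group being replicate 1 and the right bar replicate 2. The Pla2g5 segment at the base took at most 1.96% of the bar with JQ1 and at least 20.8% without JQ1.

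Pla2g2a (ENSRNOG00000016945, rn6 chr5:157282669-157285328, plus strand) encodes the secreted phospholipase A2 of inflammation and lies head to head with Pla2g5, with 13.8 kb between their start sites. It was far weaker: it was listed at 0 in 4 of the 6 libraries with JQ1 and at 0.186 and 0.112 FPKM in replicate 1 of ET-1 with JQ1 and of PE with JQ1. Without JQ1 it was detected in every library, at 0.626 and 0.222 FPKM with ET-1, 1.22 and 0.286 FPKM with PE and 0.434 and 0.112 FPKM with vehicle. Only 1 library reached 1 FPKM, at most 57 reads stood behind a value, and no test was made. Of the 10 genes within 150 kb of Pla2g5 only Otud3, a deubiquitinase gene 77.4 kb away, was tested, and it rose with JQ1 by 0.74 in ET-1-treated cells (adjusted p = 0.001), 0.85 in PE-treated cells (adjusted p = 0.00062) and 0.89 in vehicle-treated cells (adjusted p = 0.00072). Pla2g2c, Pla2g2d, Pla2g2e and Pla2g2f, the other secreted phospholipases of the cluster, reached at most 0.0253, 0.0374, 0.0693 and 0.258 FPKM in any library.

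Pla2g4a (ENSRNOG00000002657, rn6 chr13:66988937-67206693, minus strand), the calcium-activated cytosolic enzyme that prefers arachidonate, stayed low throughout, between 0.244 and 2.13 FPKM. With JQ1 it averaged 1.10 ± 0.318 FPKM with ET-1, 1.42 ± 0.416 with PE and 0.733 ± 0.691 with vehicle, against 1.41 ± 0.376 with ET-1 alone, 1.70 ± 0.599 with PE alone and 1.11 ± 0.413 with vehicle alone (SD, n = 2 each). These JQ1 differences were not called (adjusted p = 0.66, 0.76 and 0.41 in that order). Under JQ1, PE stood above vehicle by 0.75 ± 0.42 on the log2 scale, which was called only with the replicate block (adjusted p = 0.047, against 0.43 without the block).

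Among the cyclooxygenases, Ptgs1 (ENSRNOG00000007415, rn6 chr3:15560712-15582344, plus strand), the constitutive form, had lower values with JQ1 in every library pair. It had 0.294 and 0.135 FPKM in ET-1 with JQ1, against 1.49 and 0.507 FPKM with ET-1 alone. PE with JQ1 gave 0.298 and 0.0754 FPKM, against 1.73 and 0.496 FPKM with PE alone. Vehicle with JQ1 gave 0.283 and 0.0732 FPKM, against 1.18 and 0.47 FPKM with vehicle alone. The groups did not overlap in any treatment, but replicate 1 was 2.18 to 3.95 times replicate 2 in every group. The log2 differences were -0.99, -1.14 and -0.93 (SE 0.49). Ptgs1 reached 1 FPKM in 3 libraries, each of them replicate 1 without JQ1, and so passed the filter only through the side on which it was high; its differences with JQ1 are given as a description, with no test.

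Most markers of cell types other than heart muscle were also lower with JQ1 in every pair of libraries. Of the cardiomyocyte markers 3 of 11 were. The share of all genes lower in every pair was not computed. Fibroblast markers summed to 115 to 682 FPKM with JQ1 and 224 to 1380 FPKM without, and 10 of 12 were lower with JQ1 in every pair of the same number; Mfap5 was at 0 in at least 1 library. Macrophage markers summed to 2.95 to 13.5 FPKM with JQ1 and 6.38 to 25.0 FPKM without, with 11 of 12 lower in every pair, although Ptprc, Aif1, Adgre1, Cd163, C1qb and C1qc were each at 0 in at least 1 library. Mesothelial markers summed to 3.16 to 11.8 FPKM with JQ1 and 10.9 to 36.7 FPKM without, with 8 of 10 lower in every pair, and Cdh1 and Lrrn4 at 0 in at least 1 library. Endothelial markers overlapped, at 6.43 to 11.1 FPKM with JQ1 and 5.61 to 13.5 FPKM without, with 6 of 9 lower in every pair. Mural markers, which include smooth muscle genes, summed to 31.7 to 78.0 FPKM with JQ1 and 93.6 to 221.0 FPKM without, with 7 of 8 lower in every pair. Their sum did not follow the replicate split of the fibroblast markers, at 0.748 to 1.35 times replicate 2 in replicate 1. Without JQ1 it was 164 to 221 FPKM with an agonist, against 99.2 and 93.6 FPKM with vehicle. The part of these cells in the Ptgs1 values, or in those of any other member, was not tested.

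Ptgs2 (ENSRNOG00000002525, rn6 chr13:67351087-67359335, plus strand), the inducible cyclooxygenase, had 1.05 and 0.473 FPKM in ET-1 with JQ1, against 1.20 and 1.42 FPKM with ET-1 alone. PE with JQ1 gave 0.915 and 0.26 FPKM, against 1.15 and 1.14 FPKM with PE alone. Vehicle with JQ1 gave 0.624 and 0.162 FPKM, against 0.665 and 0.506 FPKM with vehicle alone. With vehicle the groups overlapped, and with either agonist they did not. It reached 1 FPKM in 1 library with JQ1 and 4 without. The log2 differences with JQ1 were -0.56, -0.66 and -0.33 (SE 0.37), none of them called (adjusted p = 0.27, 0.20 and 0.53). Without JQ1 both agonist groups lay above vehicle with no overlap, which is only a description at 2 libraries a group. Their means were 2.23-fold higher with ET-1 and 1.95-fold higher with PE. Those log2 differences, 0.74 ± 0.37 and 0.60 ± 0.37, were the largest agonist differences among the members open to test without JQ1, and they were not called (limma adjusted p = 0.31 and 0.38), also with the block (0.093 and 0.14). Replicate 1 was 2.21 to 3.85 times replicate 2 in the groups with JQ1 and 0.847 to 1.31 times in those without.

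Ptges (ENSRNOG00000006320, rn6 chr3:9727408-9738752, minus strand), the microsomal prostaglandin E2 synthase, was near the floor. It ranged from 0.0308 to 0.244 FPKM with JQ1 and from 0 to 0.198 FPKM without, on at most 18 reads, so no difference could be read at this depth.

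Ptgds (ENSRNOG00000015550, rn6 chr3:2686123-2689084, minus strand), the lipocalin-type prostaglandin D2 synthase, had its highest values in vehicle without JQ1 and similar, lower values in the other 5 groups. ET-1 with JQ1 gave 21.8 and 10.5 FPKM, against 24.2 and 11 FPKM with ET-1 alone. PE with JQ1 gave 24.4 and 13.4 FPKM, against 23.6 and 12.7 FPKM with PE alone. Vehicle with JQ1 gave 18.5 and 11.4 FPKM, against 48.4 and 29.0 FPKM with vehicle alone. The vehicle libraries were the 2 highest of the 12, and the other 5 groups overlapped one another, at means between 15.0 and 18.9 FPKM.

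With JQ1 the log2 difference of Ptgds from vehicle was 0.06 with ET-1 and 0.31 with PE; without JQ1 it was -1.17 and -1.09 (SE 0.54 each). JQ1 itself gave -0.10 with ET-1, 0.06 with PE and -1.34 with vehicle. The difference between the agonist effects with and without JQ1 was 1.23 for ET-1 and 1.39 for PE, with an SE of 0.77, or 0.15 with the replicate block. These contrasts chose the gene and carry no test. Much of the spread lay between the replicate numbers: replicate 1 was 1.63 to 2.21 times replicate 2 in every group. Within each number the pattern was alike: the vehicle with JQ1 library was 2.61-fold below the vehicle library in replicate 1 and 2.54-fold below it in replicate 2. PE and ET-1, a contrast that did not choose the gene, were not told apart, at 0.25 ± 0.54 with JQ1 and 0.09 ± 0.54 without (adjusted p = 1.0 for both).

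Within each replicate number, the summed fibroblast and macrophage markers were also highest in vehicle without JQ1. Across the numbers they were not, since replicate 1 held more of both in every group. The fibroblast sum was 917 and 224 FPKM with ET-1, 1000 and 230 FPKM with PE and 682 and 156 FPKM in vehicle with JQ1, against 1380 and 341 FPKM in vehicle alone. Of its 12 markers 9 were lower with both agonists in every pair without JQ1, and all 12 were lower with JQ1 in both vehicle pairs. Unlike Ptgds, that sum was lower again when JQ1 was added to an agonist, at 525 and 115 FPKM for ET-1 with JQ1 and 658 and 128 FPKM for PE with JQ1. The part of fibroblasts in the Ptgds values was not tested. Of 20 genes within 150 kb of Ptgds, 13 were tested, and Rabl6, a RAB-like GTPase gene 117.7 kb away, was the 1 called with JQ1. It was higher by 0.35 with ET-1, 0.47 with PE and 0.39 with vehicle (limma adjusted p = 0.01, 0.0029 and 0.0081). Over all tested genes JQ1 called 17.9%, 17.5% and 15.3% higher and 19.6%, 19.0% and 16.7% lower in that order, so 1 of 13 is not a local excess.

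**Figure D3:**
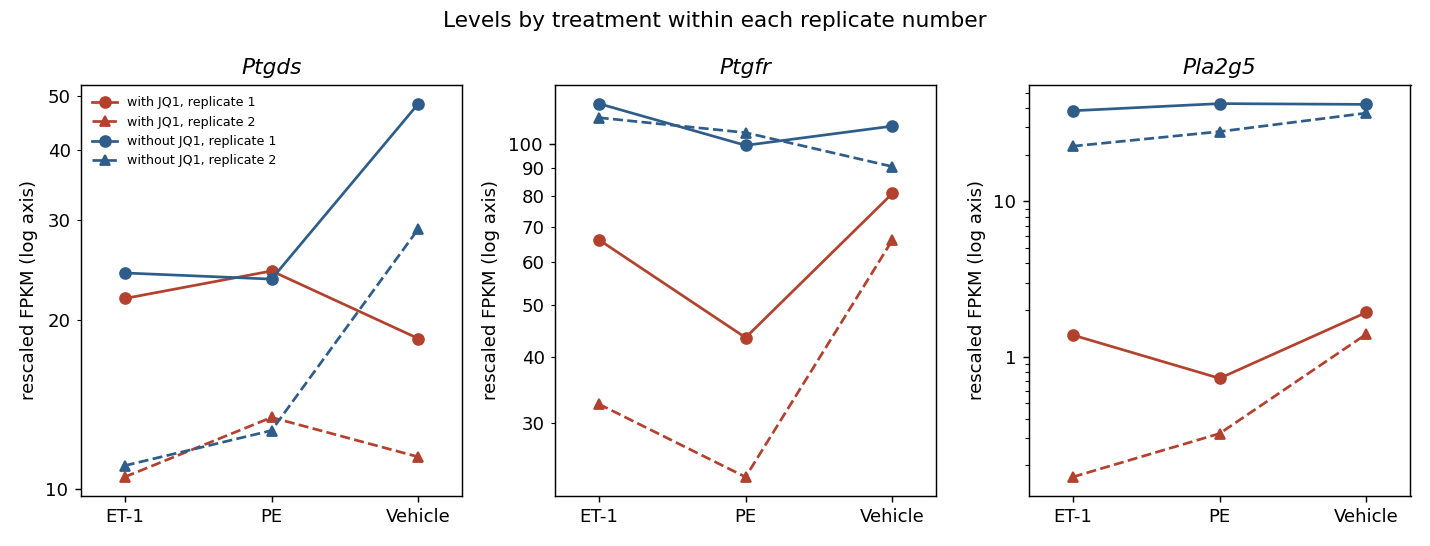
Rescaled FPKM on a log axis for Ptgds, Ptgfr and Pla2g5 by treatment, with libraries with JQ1 in red and those without in blue, and lines joining libraries of the same replicate number (solid for 1, dashed for 2). For Ptgds the red lines stay between 10.5 and 24.4 FPKM, while the blue lines rise at vehicle, to 48.4 and 29.0 FPKM; for Ptgfr the red lines dip at PE, to 43.4 and 23.8 FPKM, while the blue lines stay between 90.7 and 119.0 FPKM.

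Ptgfr (ENSRNOG00000046468, rn6 chr2:257005829-257038105, minus strand), the receptor for prostaglandin F2 alpha, was the most abundant member in all 12 libraries and the 1 that passed the test. It made up 93.5 to 97.6% of the summed FPKM of 8 prostanoid receptor genes in every library, and no other receptor exceeded 2.57 FPKM. JQ1 lowered it in stimulated cells. ET-1 with JQ1 gave 66.2 and 32.6 FPKM, against 119.0 and 112.0 FPKM with ET-1 alone. PE with JQ1 gave 43.4 and 23.8 FPKM, against 99.4 and 105.0 FPKM with PE alone. Vehicle with JQ1 gave 80.8 and 66.1 FPKM, against 108.0 and 90.7 FPKM with vehicle alone. Every JQ1 library was below every library without JQ1.

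The means of Ptgfr with JQ1 were 2.34-fold lower with ET-1, 3.04-fold lower with PE and 1.35-fold lower with vehicle. The log2 differences were -1.31 ± 0.35 with ET-1 (adjusted p = 0.02) and -1.65 ± 0.35 with PE (adjusted p = 0.0075). With vehicle the difference was -0.44 ± 0.35 and was not called (adjusted p = 0.38). The PE result was kept when any of its 4 libraries was left out (adjusted p = 0.0075 to 0.047). The ET-1 result was not called without ET-1 replicate 1 (adjusted p = 0.085), without ET-1 replicate 2 (0.07) or without ET-1 with JQ1 replicate 2, where the difference was -0.80 (adjusted p = 0.11); it was called without ET-1 with JQ1 replicate 1, at -1.81 (adjusted p = 0.006). Fitted on the 4 compared libraries alone it was not called either (adjusted p = 0.077).

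Whether the JQ1 effect on Ptgfr differed between stimulated and vehicle-treated cells was tested by the interaction, at -0.87 ± 0.49 for ET-1 and -1.22 ± 0.49 for PE, and was not called (adjusted p = 1.0 and 0.95). The agonists alone gave log2 differences from vehicle of 0.22 ± 0.35 for ET-1 (adjusted p = 0.79) and 0.04 ± 0.35 for PE (adjusted p = 0.96), neither called. Under JQ1, ET-1 differed from vehicle by -0.65 ± 0.35 (adjusted p = 0.39) and PE by -1.17 ± 0.35 (adjusted p = 0.16), the PE difference being called with the replicate block (adjusted p = 0.027). These comparisons share their vehicle libraries with one another.

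Ptger4 (ENSRNOG00000013240, rn6 chr2:54952821-54963448, minus strand), the EP4 receptor, stayed below 1 FPKM everywhere, at 0.104 to 0.938 FPKM with JQ1 and 0.165 to 0.77 FPKM without. Its replicate 1 was 2.58 to 7.63 times its replicate 2, a larger gap than that between any groups' means, and it was not tested.

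The members' calls were set against those over all genes. In ET-1-treated cells JQ1 called 1 of the 3 members open to test (Pla2g4a, Ptgs2 and Ptgfr), namely Ptgfr, lower, where 19.6% of all 13793 tested genes were lower and 17.9% higher. In PE-treated cells it again called 1 of 3, with 19.0% of all genes lower and 17.5% higher, and in vehicle-treated cells 0 of 3, with 16.7% lower and 15.3% higher; 6002 genes there had an unadjusted p under 0.05, and none of the 3. The split of all genes depended on the scaling: on the values as deposited 1325 were higher and 2833 lower with ET-1, against 2471 and 2697 on the rescaled ones, and 1077 and 2368 with vehicle, against 2112 and 2299. The 3 members' median log2 difference was -0.56 with ET-1, -0.66 with PE and -0.44 with vehicle, beside medians over all genes of 0.026, 0.011 and 0.012. With the replicate block the counts stayed at 1, 1 and 0 of 3, where 29.8%, 29.7% and 27.9% of all genes were lower, and 27.1%, 26.7% and 24.9% were higher.

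Without JQ1 the agonists called none of the 5 members open to test in limma, and 0 had an unadjusted p under 0.05 with either agonist. Under JQ1, Ptgs1 and Pla2g5 are left out. Ptgs1 passed the filter only through libraries without JQ1, and the low JQ1 libraries of Pla2g5 chose that gene. Of Pla2g4a, Ptgs2 and Ptgfr, none was called under JQ1 in limma. At an unadjusted p under 0.05 there were 0 of them with ET-1 and 1 with PE (Ptgfr). Among all genes ET-1 called 1.36% and PE 0.718% with JQ1, and 2.87% and 6.07% without JQ1. The split into higher and lower genes on values as deposited was 9 and 16 for ET-1 and 22 and 9 for PE with JQ1, against 44 and 143 and 53 and 46 on rescaled values, and 189 and 347 for PE without JQ1, against 398 and 439. With the replicate block these shares became 11.6%, 12.1%, 18.4% and 24.0%. The block also called Pla2g4a, higher, and Ptgfr, lower, under PE with JQ1 against vehicle with JQ1. Between PE and ET-1 no member was called, where 0.0% of all genes were called with JQ1 and 0.00725% without it (limma; 471 and 206 genes had an unadjusted p under 0.05). The interactions called 0.0% of genes for ET-1 and 0.0% for PE, with 616 and 717 genes at an unadjusted p under 0.05.

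Other genes of the pathway changed with JQ1 in both directions. They came from 5 lists holding 55 genes, of which 54 were in the tables and 27 were tested. Of these 27, Slco2a1, Ptgir and Tbxa2r reached 1 FPKM in libraries without JQ1 only, so they are left out of the JQ1 counts and given without a test. Of the other 24, JQ1 raised 5 and lowered 7 in ET-1-treated cells, where 17.9% of all genes were higher and 19.6% lower. It raised 5 and lowered 6 in PE-treated cells (17.5% and 19.0% of all genes), and raised 3 and lowered 7 in vehicle-treated cells (15.3% and 16.7%). With the replicate block it raised 6 and lowered 11 with ET-1 (27.1% and 29.8% of all genes), 6 and 10 with PE (26.7% and 29.7%), and 5 and 11 with vehicle (24.9% and 27.9%). The medians over the 24 were -0.19, -0.23 and -0.23. When each compared library was left out in turn, 6 of 12, 8 of 11 and 5 of 10 of the calls without the block were kept every time. Daglb, Ptges2 and Ptgr1 were kept in all treatments.

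Among phospholipases, Pla2g12a rose with JQ1 by 0.54 with ET-1, 0.71 with PE and 0.93 with vehicle (adjusted p = 0.02, 0.0066 and 0.0025), the ET-1 call being lost when any library other than ET-1 with JQ1 replicate 1 was left out (adjusted p up to 0.1). Pnpla8 rose by 0.90 with ET-1 and 1.20 with PE (adjusted p = 0.0044 and 0.0013). Its vehicle difference was 0.17 (adjusted p = 0.46). Pla2g16 fell by 0.99, 0.86 and 0.61 on the log2 scale (adjusted p = 0.0034, 0.0065 and 0.031), and the vehicle call was lost when any library other than vehicle with JQ1 replicate 2 was left out (adjusted p up to 0.17). Pla2g7, the platelet-activating factor acetylhydrolase of plasma, was at 2.86 and 2.09 FPKM in vehicle with JQ1 and 6.17 and 7.61 FPKM in vehicle, a difference of -1.32 (adjusted p = 0.0013). Its differences with ET-1 and PE were 0.15 and 0.02 (adjusted p = 0.52 and 0.95).

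Among enzymes and carriers that make, break down or move prostanoids, Ptgr1, a reductase that inactivates prostaglandins and leukotriene B4, fell with JQ1 by 1.28 with ET-1, 1.16 with PE and 1.29 with vehicle (adjusted p = 0.0019, 0.0031 and 0.0025). Ptges2, the membrane-associated prostaglandin E synthase 2, fell by 0.67, 0.58 and 0.50 (adjusted p = 0.0012, 0.0026 and 0.0061). Slco2a1, the prostaglandin uptake transporter, stood at 0.0761 to 0.302 FPKM with JQ1 and 0.762 to 1.52 FPKM without, at log2 differences of -1.18, -1.24 and -1.20. Abcc4, a pump that exports prostaglandin E2, rose by 0.59 with ET-1 and 0.70 with PE (adjusted p = 0.0086 and 0.0044). The ET-1 call was lost without ET-1 replicate 1 or ET-1 with JQ1 replicate 2 (adjusted p up to 0.059).

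Among receptors, Tbxa2r, for thromboxane A2, stood at 0.0647 to 0.526 FPKM with JQ1 and 0.91 to 1.96 FPKM without, at log2 differences of -1.11, -1.16 and -1.38. Ptgfrn, a membrane protein that binds the FP receptor and reduces its ligand binding, fell by 1.04, 1.06 and 0.77 (adjusted p = 0.0074, 0.0069 and 0.03), with the vehicle call lost whichever library was left out (adjusted p = 0.092 to 0.12). Ptgir, the prostacyclin receptor, stood at 0.0424 to 0.174 FPKM with JQ1 and 0.439 to 1.55 FPKM without, at log2 differences of -1.17, -1.19 and -1.30. Tbxa2r, Ptgir and the transporter gene Slco2a1 did not overlap between libraries with and without JQ1. They entered the tested genes only through libraries without JQ1, where they were high, so this separation is a description and not support.

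Of the enzymes that bring arachidonate by other routes, Daglb, a diacylglycerol lipase, rose by 0.92, 0.88 and 0.75 (limma adjusted p = 0.0007, 0.0009 and 0.0024). A separate list, of lipoxygenases and leukotrienes, had 1 tested gene, Lta4h. Lta4h, the leukotriene A4 hydrolase, rose by 0.88, 0.97 and 0.90 (adjusted p = 0.016, 0.011 and 0.018), and each of these calls was lost without replicate 1 of the JQ1 group or replicate 2 of its DMSO group (adjusted p up to 0.098, 0.073 and 0.11). The remaining calls were Pla2g6, Pla2r1 and Ptgr2 with ET-1, Pla2r1 and Ptgr2 with PE, and Pla2g4b and Pla2g6 with vehicle, all lower with JQ1 and each lost with at least 2 of the 4 libraries left out.

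**Figure D4:**
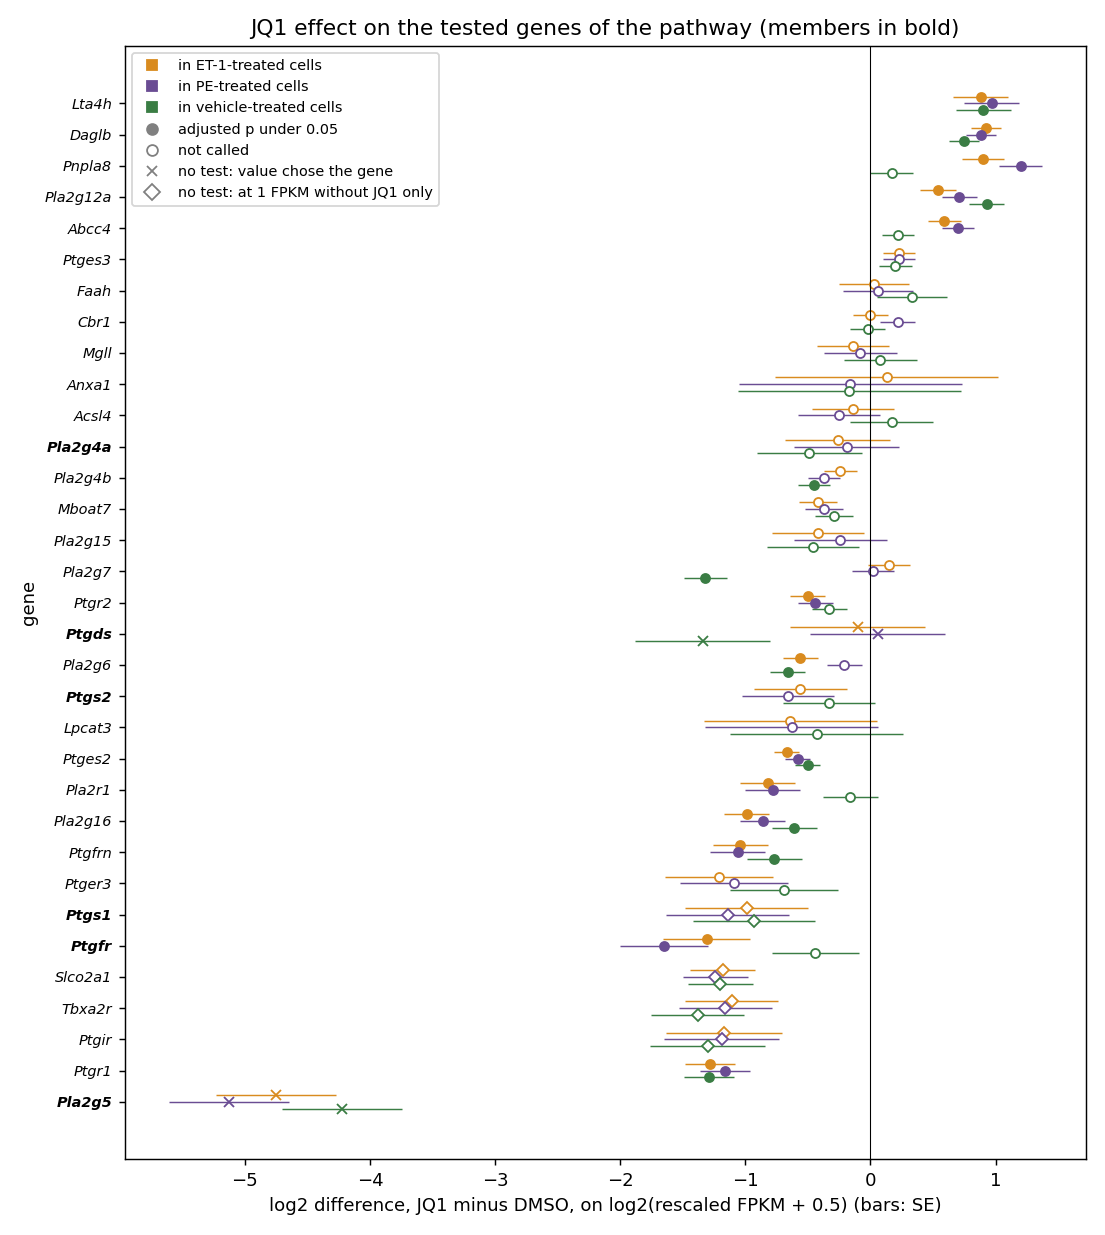
Log2 difference between JQ1 and DMSO (bars, SE) for the tested genes of the pathway in ET-1-, PE- and vehicle-treated cells, with members in bold, filled circles at an adjusted p under 0.05, crosses where the value chose the gene and diamonds, without a test, for genes at 1 FPKM in libraries without JQ1 only. Pla2g5 lies apart from the rest at -4.22 to -5.13, and Lta4h, Daglb and Pla2g12a lie to the right of 0 in all 3 treatments.

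Without JQ1, each agonist changed 3 of the 27 other pathway genes, where 2.87% of all genes were called with ET-1 and 6.07% with PE. ET-1 lowered Pla2g4b, Pla2g6 and Pla2g7, by 0.64, 0.82 and 0.84 on the log2 scale (adjusted p = 0.044, 0.029 and 0.047). PE lowered Pla2g4b by 0.79 and Pla2g6 by 0.95 (adjusted p = 0.017 and 0.014) and raised Mboat7, which puts arachidonate back into phosphatidylinositol, by 0.63 (adjusted p = 0.046), though Mboat7 overlaps another listed gene. Each of these 6 calls was lost whichever of the 4 libraries was left out (adjusted p up to 0.28). With the block there were 10 such calls for ET-1 and 9 for PE, where 18.4% and 24.0% of all genes were called. With JQ1, Slco2a1, Ptgir and Tbxa2r stayed below 1 FPKM in every library and are left out. Of the other 24 genes none was called for either agonist in limma. At an unadjusted p under 0.05 there were 8 with ET-1 and 8 with PE. With the block 5 were called for each, where 11.6% and 12.1% of all genes were called.

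Genes whose levels followed a member most closely over the 12 libraries were sought among 12998 tested genes by Pearson's r of log2 values, as a description. The libraries with and without JQ1 form separate sets, and all share the replicate split. For Pla2g5 they were Zbtb8os (r = 0.994), Tmem94, Trip10 and Rab13 (0.993 each) and Tst (0.992). Rab13, a small GTPase gene, averaged 24.1, 21.5 and 26.8 FPKM in the ET-1, PE and vehicle groups with JQ1, against 72.7, 69.3 and 72.6 FPKM without, a much smaller ratio than that of Pla2g5. For Ptgds they were Fig4 (r = 0.952), Cdyl2 (0.929), Gnpda1 (0.928), Cped1 (0.924) and Smoc1 (0.921). Fig4, the closest, averaged 4.69, 4.94 and 4.44 FPKM in the ET-1, PE and vehicle groups with JQ1, against 4.83, 4.61 and 5.79 FPKM without. Its differences were much smaller than those of Ptgds. Smoc1, which encodes a secreted calcium-binding protein, averaged 1.14, 1.18 and 1.54 FPKM in those groups with JQ1, against 2.02, 1.94 and 3.68 FPKM without. Its means were thus lower with JQ1 also in agonist-treated cells.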

How the data were processed

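Ribosomal RNA was depleted and stranded libraries were prepared, per the labels' protocols. StringTie 1.3.4d, the aligner STAR 2.7.1a, the trimmer Trim Galore 0.6.0 and also DESeq2 1.24.0 appear in the submitters' processing notes, with build rn6. The authors deposited an FPKM and a mean coverage (signal) per transcript, per the file headers, in 12 tables of 41078 transcripts each. Coordinates are quoted as deposited on rn6, and promoters come from RefSeq (GRCr8), matched by symbol for 9 members. Whether reads were counted by strand is unknown here, which leaves overlapping genes uncertain; no member overlaps another listed gene.

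FPKM were summed by gene identifier and rescaled by the median of ratios over 15551 genes, with factors of 0.873 to 1.127. limma 3.58.1 (R 4.3.3; trended, robust) was run on log2(rescaled FPKM + 0.5) for 13793 genes, with 6 group means over 12 libraries and Benjamini-Hochberg adjustment within each of 11 comparisons at 0.05. It was also run on simulated libraries with 200 genes changed in ET-1. There it called 69% of the genes changed by 1 on the log2 scale and 89% of those changed by 2, with 13 false calls. The simulated libraries scattered independently, unlike the same-numbered libraries here. Deviations of same-numbered libraries from their group means correlated at 0.155 to 0.671 over the 15 pairs of groups. The labels themselves do not state a pairing. The main fit left the libraries unpaired, and pairing by replicate number entered only in the alternative fit with the block. The choice matters: for ET-1 against vehicle without JQ1 the main fit called 396 genes and the block 2537. Read numbers are covered bases divided by 50, the commonest value among 35197 covered lengths under 400 bases (1626 of them), since no source used here states a read length.

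The members and lists were chosen with earlier results of these data known. All members are named, other pathway genes are counted in each direction and named where called in a comparison, and the 5 genes most alike are given for Pla2g5 and Ptgds. Otud3, Rabl6 and Ptgir were named after their values were seen. Ptgs1, Slco2a1, Ptgir and Tbxa2r reached 1 FPKM in libraries without JQ1 only. Leaving them out of the JQ1 counts, and of the agonist counts under JQ1, was also decided after their values were seen. Alternatives were the replicate block, other pseudocounts, no filter, unscaled values, factors from longer genes, a fit on the compared libraries alone and each library left out.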

Additional observations from a re-analysis of the deposited data

Results flagged for a closer look

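The ET-1 library of the receptor gene Ptgfr lay below its vehicle library with JQ1 and above it without JQ1 in both replicate numbers. With JQ1, ET-1 gave 66.2 and 32.6 FPKM and vehicle 80.8 and 66.1 FPKM; without JQ1, ET-1 gave 119.0 and 112.0 FPKM and vehicle 108.0 and 90.7 FPKM. Neither ET-1 difference was called (-0.65, adjusted p = 0.39, with JQ1 and 0.22, adjusted p = 0.79, without, in limma). The agonist effect differed by -0.87 on the log2 scale. That every pair agreed in sign was not tested as such, and the interaction in limma did not call the difference (adjusted p = 1.0, or 0.45 with the replicate block).

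For Ptgds the PE library lay above its vehicle library with JQ1 and below it without JQ1 in both replicate numbers. With JQ1, PE gave 24.4 and 13.4 FPKM and vehicle 18.5 and 11.4 FPKM; without JQ1, PE gave 23.6 and 12.7 FPKM and vehicle 48.4 and 29.0 FPKM. The PE effect differed by 1.39 on the log2 scale, and this difference was not tested because it chose the gene.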

How the results depend on the processing

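The count of members called with JQ1 was 0 in vehicle-treated cells and 1 each in ET-1- and PE-treated cells. With the replicate block it became 1, 2 and 2 in that order, each time by Ptgs1. That gene reached 1 FPKM only without JQ1 and is not read as a result. The count for PE with JQ1 against vehicle with JQ1 became 3, against 0 without the block. These 3 include Pla2g5, whose low JQ1 libraries chose the gene, and its call is not read as a result. Pairing changed no other count of members. Fitted on the compared libraries alone, the count in ET-1-treated cells was 0. With libraries left out 1 at a time it ranged from 0 to 1 in ET-1-treated cells and from 1 to 2 in PE-treated cells. The other comparisons of members kept their counts under every alternative run.

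Differences that were not called changed sign in 5 cases when 1 library was left out: Ptgs2 with JQ1 in vehicle-treated cells (-0.71 to 0.05), Pla2g4a with JQ1 in vehicle-treated cells (-1.09 to 0.12) and in PE-treated cells (-0.47 to 0.09), Pla2g5 with PE without JQ1 (-0.48 to 0.11) and Ptgfr with PE without JQ1 (-0.08 to 0.17). The last was also -0.08 on the values as deposited. Of 1047 alternative values over 93 results (differences of single genes and counts of other pathway genes), 885 were taken as unchanged. For tested differences this meant the same direction and side of the threshold. For values that chose the gene it meant a shift smaller than the spread within groups. For counts it meant a number close to the main one.

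Over all genes the calls depended on the fit. The 187 called with ET-1 and 99 with PE under JQ1, and the 396 and 837 without JQ1, became 0 on the compared libraries alone and 1601, 1664, 2537 and 3314 in that order with the block. JQ1 called 5168, 5030 and 4411 genes with ET-1, PE and vehicle, 2346, 3124 and 2583 at the lowest and 7849, 7782 and 7279 with the block. Values as deposited moved the median gene of PE without JQ1 to -0.129 from -0.01. With no filter on low values, PE against ET-1 called 3 genes with JQ1 and 9 without, against 0 and 1, and the interactions 10 (ET-1) and 13 (PE), against 0 each. Fewer than 20 reads stood behind every Ptges value and behind 9 of the 12 Pla2g2a values.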
